A study of Mus musculus with 54 samples.

Results

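The genes described here are 7 cell surface antigens used as targets of therapy or imaging in prostate or neuroendocrine cancer: Psca, Folh1, Steap1, Steap2, Cd276, Sez6 and Ncam1. They were chosen by name from what their products are used for, and all 7 were found among the 16772 genes of the table. Transcript levels came from bulk RNA sequencing of mouse prostate tumour tissue, with 54 libraries from 48 animals in 11 groups. The youngest tissue came from intact mice of 12 weeks, 4 animals per genotype (DKO, DKO_EE, DKO_EP). Intact endstage tumours came from 3 DKO animals aged 35 to 46 weeks, 8 DKO_EE animals aged 28 to 42 weeks and 3 DKO_EP animals aged 39 to 52 weeks. Endstage tumours of mice castrated at 12 weeks came from 4 DKO animals aged 39 to 99 weeks, 5 DKO_EE animals aged 35 to 59 weeks and 5 DKO_EP animals aged 34 to 37 weeks. Castrated TKO mice had received vehicle (4 animals, 15 to 19 weeks) or CPI1688, an inhibitor of Ezh2 (4 animals, 18 to 19 weeks). Every DKO_EE and DKO_EP animal shared the DKO background, and the submitters describe both models as DKO with Ezh2 deletions. The alleles behind DKO, TKO, EE and EP, the promoter driving any Cre and the identity of the tumour founders are not given in the sources used here. Age differed between the settings along with tumour stage, so age and stage cannot be told apart.

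The antigens fall into lineage classes. Folh1 encodes prostate-specific membrane antigen, a folate hydrolase and glutamate carboxypeptidase that radioligands bind in luminal prostate adenocarcinoma, and Psca encodes prostate stem cell antigen, a lipid-anchored protein of the Ly6 family. Steap1 and Steap2 encode membrane proteins of a family that contains metal reductases, and Cd276 encodes B7-H3, an immune regulatory ligand of the B7 family carried by many carcinomas. Sez6 encodes a neuronal membrane protein studied as a target of antibody conjugates in small cell and neuroendocrine cancer, and Ncam1 encodes the neural cell adhesion molecule CD56, a diagnostic marker of neuroendocrine tumours. Neuroendocrine prostate cancer is known for losing luminal products and gaining neuronal ones.

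All levels below are on the deposited log2 scale, log2 of a normalised count plus 1, and each value is 1 animal unless stated. Depth over the tabled genes was 3687048 to 9741808 reads per library. Ezh2, the deleted gene, was still detected in every group. Its intact endstage means were 9.61 in DKO, 8.28 in DKO_EE and 9.39 in DKO_EP, and by limma it was lower in DKO_EE than in DKO there (log2 difference -1.34, SE 0.26, Benjamini-Hochberg adjusted p = 0.0194). At 12 weeks its means were 8.40 in DKO, 7.60 in DKO_EE and 8.22 in DKO_EP. No gene, and so not Ezh2, passed the same test between genotypes at 12 weeks or between DKO_EP and DKO at intact endstage. Features of the libraries bear on the results. The mitochondrial tRNA synthetase gene Lars2 took over 10% of the reads in 5 of 12 intact endstage DKO_EE libraries, in 5 of 5 of DKO_EP and in no other library. Skeletal muscle genes were high in many of the 12-week animals, where Ttn took up to 2.55% of the reads. A pair of castrated animals went against the rest of their groups in neuroendocrine markers: replicate 2 of castrated DKO, aged 99 weeks, and replicate 1 of vehicle-treated TKO, aged 19 weeks. The mean over 20 neuroendocrine markers, each centred on all animals, was -4.80 and -2.58 in them against 0.50 to 1.96 in the other 34 animals older than 12 weeks. In bulk tissue, fewer cells of a type and less RNA per cell cannot be told apart.

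Promoter sequences are shown for the 4 members listed in the RefSeq promoter table (GRCm38.p6), because CpG-dense starts are the class of promoter at which Polycomb repressive complex 2, the complex of Ezh2, is known to act, and because Steap1 and Steap2 are neighbours whose transcripts varied together. Each run is the 250 bases before the annotated start, all genes being on the minus strand, and capitals mark CpG dinucleotides.
Cd276 (chr9:58555034-58555283): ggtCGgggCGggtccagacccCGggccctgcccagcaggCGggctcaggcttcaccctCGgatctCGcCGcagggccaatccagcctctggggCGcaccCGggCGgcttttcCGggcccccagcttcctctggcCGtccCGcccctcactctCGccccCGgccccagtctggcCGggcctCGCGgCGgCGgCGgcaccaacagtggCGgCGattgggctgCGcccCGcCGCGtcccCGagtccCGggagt
Steap1 (chr5:5749318-5749567): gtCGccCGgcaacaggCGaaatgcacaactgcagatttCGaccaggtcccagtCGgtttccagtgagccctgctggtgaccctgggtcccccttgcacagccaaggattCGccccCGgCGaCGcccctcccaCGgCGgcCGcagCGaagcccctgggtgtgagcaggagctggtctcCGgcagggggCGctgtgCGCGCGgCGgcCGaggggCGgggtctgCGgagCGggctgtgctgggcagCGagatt
Steap2, CpG-dense start (chr5:5694090-5694339): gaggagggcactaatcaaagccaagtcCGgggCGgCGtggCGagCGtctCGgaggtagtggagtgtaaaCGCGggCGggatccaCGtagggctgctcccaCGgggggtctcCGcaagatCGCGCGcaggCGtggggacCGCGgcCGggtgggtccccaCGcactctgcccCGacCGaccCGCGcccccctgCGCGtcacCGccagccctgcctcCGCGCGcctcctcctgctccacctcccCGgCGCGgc
Steap2, outermost start (chr5:5694569-5694818): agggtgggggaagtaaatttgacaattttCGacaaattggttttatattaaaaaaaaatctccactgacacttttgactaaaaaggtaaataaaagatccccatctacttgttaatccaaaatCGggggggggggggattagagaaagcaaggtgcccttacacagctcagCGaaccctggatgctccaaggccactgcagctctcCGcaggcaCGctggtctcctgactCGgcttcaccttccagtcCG
Folh1 (chr7:86775865-86776114): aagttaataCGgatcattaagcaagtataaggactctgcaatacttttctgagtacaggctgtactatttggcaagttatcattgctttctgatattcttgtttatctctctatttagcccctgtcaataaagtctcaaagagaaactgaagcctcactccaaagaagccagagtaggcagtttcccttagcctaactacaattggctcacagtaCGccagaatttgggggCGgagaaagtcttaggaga

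The windows of Cd276, Steap1 and the inner Steap2 start held 29, 24 and 33 CpG, against a median of 6 over 32851 windows of the same length. Fewer CpG were found in 93.2%, 88.0% and 96.0% of those windows, respectively. The Folh1 window held 3 CpG, with fewer in 29.0% of windows, and the outermost Steap2 window held 7. Another listed Steap2 start, between the 2 shown, is not printed, and its window held 10 CpG, with fewer in 62.2% of windows. On either strand, TATAAA was present in the outermost Steap2 window and in 12.4% of all windows. The letters GGGCGG occurred in the windows of Cd276, Steap1, the inner Steap2 start and Folh1, and in 32.7% of all windows. The letters TGTTCT, part of the androgen response element, occurred in none of the 5 printed windows and in 16.1% of all windows.

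In the gene annotation on GRCm38 (GENCODE M21), Folh1 lies on chromosome 7 from 86718977 to 86775943, minus strand, and Psca on chromosome 15 from 74714839 to 74717069, plus strand. Steap1 (chromosome 5, 5736317 to 5749326) and Steap2 (chromosome 5, 5664829 to 5694578) lie on the minus strand with 41738 bases between them. Cd276 (58524298 to 58555437) and Ncam1 (49502136 to 49798925) are both on the minus strand of chromosome 9. Sez6 is on the plus strand of chromosome 11 from 77930800 to 77979048. All are protein-coding genes, and the values sum over each gene's exons.

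Relative to length, the antigen with the highest level differed between the 12-week and the later groups. Reads per kb of exons, scaled to each library's depth as in RPKM, were used for this comparison of levels between genes. Psca led in each 12-week group, with group medians of 59.3 in DKO, 18.7 in DKO_EE and 44.7 in DKO_EP. Its range over animals overlapped that of Cd276 in each of these groups, as in DKO_EE with 4.28 to 65.1 against 9.91 to 18.2. Ncam1 led in each of the 8 later groups, with medians from 25.6 in castrated DKO to 53.2 in TKO given CPI1688. The castrated DKO animal of 99 weeks went the other way, with Psca at 256 and Ncam1 at 3.40. Cd276 was present throughout, with medians from 6.23 in intact endstage DKO to 16.4 in TKO given CPI1688. Folh1 was low in every group, with medians from 0.0 to 0.736, and Sez6 medians were 0.0422 to 0.0869 at 12 weeks against 4.74 to 11.9 in the later groups. The order of the leading gene was the same with the longest transcript as the length.

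**Figure D1:**
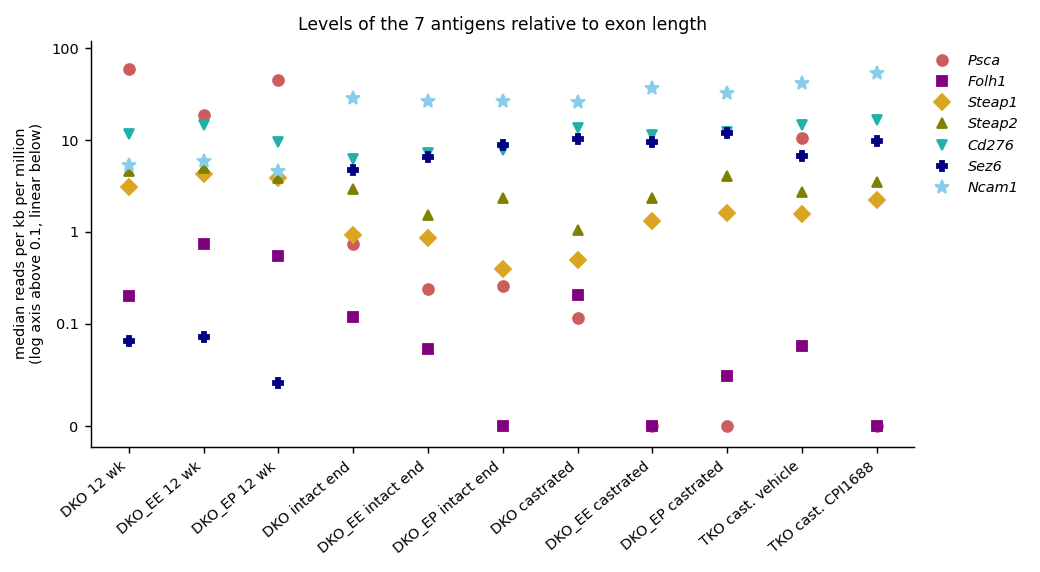
Median RPKM, reads per kb of exons scaled to library depth (vertical axis, logarithmic above 0.1 and linear below) of the 7 antigens in each of the 11 groups (horizontal axis). Psca is the highest symbol in the 3 groups of 12 weeks and Ncam1 in the other 8 groups, while Folh1 stays below 1 in all of them.

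Between 12 weeks and intact endstage, Sez6 and Ncam1 rose and Psca fell in each of the 3 genotypes. In DKO, 4 of the 7 antigens passed the test, 2 higher (Sez6, Ncam1) and 2 lower (Psca, Cd276), while 36.7% of all genes were called. In DKO_EE, 6 passed, 2 higher (Sez6, Ncam1) and 4 lower (Folh1, Psca, Steap2, Cd276), with 50.6% of all genes called. In DKO_EP, 5 passed, 2 higher (Sez6, Ncam1) and 3 lower (Folh1, Psca, Steap1), with 44.2% of all genes called. The median log2 difference over the 7 antigens was -0.84, -1.65 and -1.63 in DKO, DKO_EE and DKO_EP, beside -0.04, -0.07 and -0.06 over all genes. Calls are limma tests on log2 values with a threshold of 0.05 on the p-value adjusted over all genes (Benjamini-Hochberg). In comparisons between settings the p-values rest on a spread between animals pooled over all 11 groups, including groups not compared. With the Lars2 level as a covariate, only Sez6 was still called in DKO_EE and in DKO_EP. Lars2 took 0.002% to 0.003% of the reads in 12-week DKO_EE and DKO_EP animals. At intact endstage it took 0.009% to 35.3% in DKO_EE and 14.2% to 21.6% in DKO_EP, with no overlap with 12 weeks in either genotype. The covariate and the setting therefore cannot be told apart in DKO_EP. In DKO_EE, where Lars2 varied widely at endstage, they can be told apart only in part. With only libraries under 10% Lars2, all 7 antigens were called in DKO_EE.

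**Figure D2:**
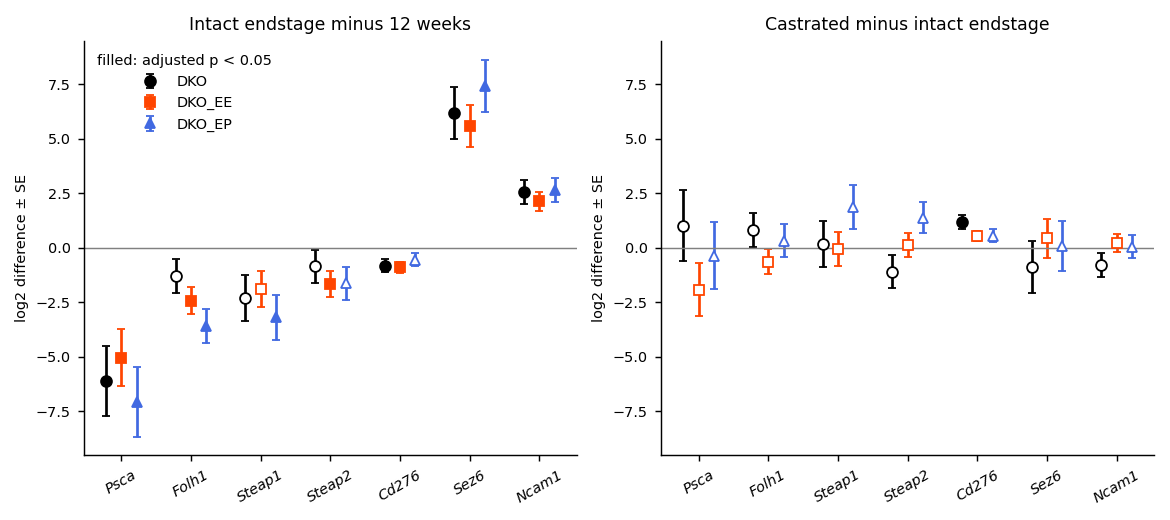
Log2 differences with standard errors (vertical axis) of the 7 antigens (horizontal axis) between intact endstage and 12 weeks (left) and between castrated and intact endstage tumours (right), by genotype (symbol). Filled symbols passed the test, and on the left Sez6 and Ncam1 lie above 0 and Psca below 0 in all 3 genotypes, while on the right Cd276 in DKO is the only filled symbol.

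Psca, the Ly6 family antigen, was abundant in the intact prostate tissue at 12 weeks. Its log2 values were 8.43, 8.85, 9.40 and 5.83 in DKO, 4.92, 7.08, 6.95 and 8.84 in DKO_EE, and 7.10, 9.71, 6.64 and 8.98 in DKO_EP. At intact endstage they were 2.45, 3.58 and 0.00 in DKO and 1.60, 0.00 and 1.52 in DKO_EP, and in DKO_EE the lowest, median and highest were 0.00, 1.34 and 4.98. Of the intact endstage animals, 1 DKO_EE animal reached the lowest 12-week value. The log2 difference, a fall, was -6.12 in DKO (SE 1.61, limma adjusted p = 0.00271), -5.03 in DKO_EE (SE 1.29, limma adjusted p = 0.00142) and -7.07 in DKO_EP (SE 1.61, limma adjusted p = 0.000538). In DKO_EP the endstage animals held 3 Psca reads in all against 1481 at 12 weeks, a ratio of 352 in CPM (reads scaled to library depth) with an exact 95% counting interval of 120 to 1708. That interval covers the counting of pooled reads only and leaves out the spread between animals, which the SE above reflects. The letters that open the animal identifiers differ between the DKO groups, and with them as a covariate the DKO difference was -5.30 (adjusted p = 0.148).

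In the castrated groups Psca was near 0 apart from a few animals. All 5 castrated DKO_EE animals were at 0 reads, which at 3 reads per library allows up to 0.413 to 0.570 CPM. In castrated DKO_EP, 4 animals were at 0 and the other held 8 reads (3.36). Castrated DKO animals had values of 0.00, 10.85, 1.28 and 0.00, and the second of these, with 1336 reads, was the highest Psca value of all 48 animals. It came from the animal of 99 weeks, whose basal keratin genes Krt5 and Krt15 were at 14.23 and 14.88 and whose neuroendocrine granule gene Chga was at 3.59. In vehicle-treated TKO tumours the values were 7.18, 7.19, 1.71 and 1.14, and with CPI1688 they were 0.00, 0.00, 0.00 and 1.17. Altogether 17 of the 36 animals older than 12 weeks were at 0 and 4 reached the lowest 12-week level.

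Folh1, the gene of prostate-specific membrane antigen, had few reads even where it was highest. At 12 weeks it was at 3.71, 2.43, 1.64 and 2.77 in DKO, at 4.39, 2.39, 4.18 and 4.76 in DKO_EE and at 3.79, 3.77, 4.72 and 4.13 in DKO_EP, from 2 to 31 reads. Of the 36 later animals, 28 had 3 reads or fewer and 13 had none, so no fold is given between later groups. Intact endstage values were 1.88, 0.00 and 2.19 in DKO, 0.72 to 2.46 with a median of 1.54 in DKO_EE, and 0.00, 0.00 and 1.52 in DKO_EP. By limma, Folh1 fell from 12 weeks to intact endstage, with differences of -2.42 in DKO_EE (SE 0.63, adjusted p = 0.00152) and -3.60 in DKO_EP (SE 0.78, adjusted p = 0.000313). The DKO_EP groups did not overlap, and the ratio there was 44.2 in CPM (62 reads against 1), with a 95% counting interval of 7.64 to 1773. This interval of pooled reads also leaves out the spread between animals. In DKO, with a 12-week mean of 2.64, the difference was -1.28 (SE 0.78, limma adjusted p = 0.203). The highest later values were 4.04 and 3.41 in castrated DKO, replicates 4 and 2.

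**Figure D3:**
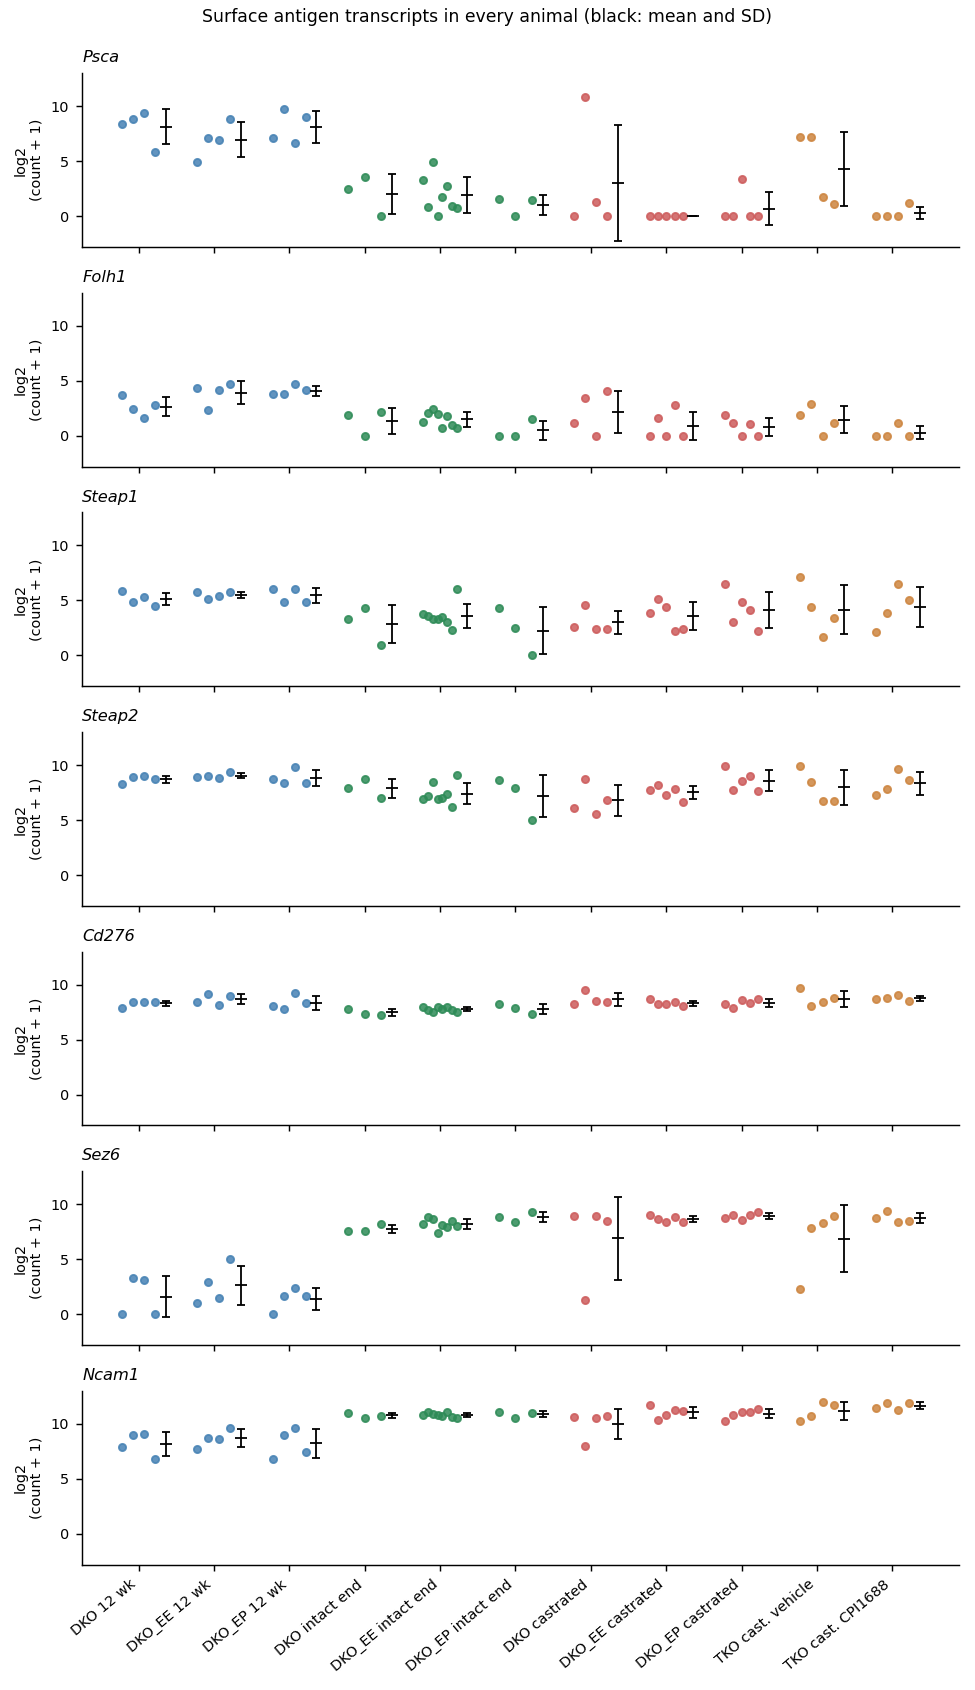
Log2 of the normalised count plus 1 (vertical axis) for each antigen (panel) in every animal (coloured point) of the 11 groups (horizontal axis), with the group mean and SD in black. Psca is high in the 12-week groups and Sez6 and Ncam1 in most animals of the later groups, Folh1 stays at 4.76 or below in every animal, and Cd276 lies between 7.27 and 9.74 everywhere.

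Steap1 and Steap2 varied widely within the later groups. Steap1 at 12 weeks was between 4.53 and 6.08 in the 12 animals. At intact endstage it was 3.31, 4.27 and 0.92 in DKO, 4.32, 2.48 and 0.00 in DKO_EP, and 2.34 to 6.08 with a median of 3.42 in DKO_EE. Castrated tumours ranged from 2.41 to 4.61 in DKO, 2.21 to 5.09 in DKO_EE and 2.23 to 6.51 in DKO_EP, and TKO tumours from 1.71 to 7.11 with vehicle and 2.18 to 6.46 with CPI1688. The highest value of a later animal, 7.11, was thus above every 12-week value. By limma, Steap1 fell to intact endstage in DKO_EP (-3.18, SE 1.04, adjusted p = 0.0124). That call rested on the replicate at 0.00, without which the difference was -2.05 (adjusted p = 0.157). In DKO the difference was -2.29 (SE 1.04, limma adjusted p = 0.0806) with no overlap between the groups, and -3.01 without intact endstage replicate 2 (adjusted p = 0.0465). In DKO_EE it was -1.88 (SE 0.84, limma adjusted p = 0.0575), and -2.23 without the animal at 6.08 (adjusted p = 0.0235).

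Steap2 was the more abundant of the pair, also relative to exon length in 10 of 11 groups, the 12-week DKO_EP group having medians of 3.83 for Steap2 and 3.87 for Steap1. The 12-week values were 8.26 to 8.99 in DKO, 8.84 to 9.41 in DKO_EE and 8.32 to 9.84 in DKO_EP. Intact endstage values were 7.94, 8.72 and 6.97 in DKO, 8.66, 7.88 and 5.04 in DKO_EP, and 6.18 to 9.09 with a median of 7.09 in DKO_EE. By limma it fell in DKO_EE, with a difference of -1.65 (SE 0.60, adjusted p = 0.0218), and lost the call without 12-week replicate 4 (-1.52, adjusted p = 0.0615). The difference was -0.84 in DKO (SE 0.75, limma adjusted p = 0.402) and -1.63 in DKO_EP (SE 0.75, limma adjusted p = 0.0741), the latter -2.37 without the highest endstage animal (adjusted p = 0.0224). In castrated tumours Steap2 was 5.51 to 8.77 in DKO, 6.60 to 8.19 in DKO_EE and 7.64 to 9.91 in DKO_EP, with overlap among all 3.

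Animals high in Steap1 were high in Steap2. Pearson's r between their log2 values was 0.85 over the 48 animals after centring within groups and 0.84 over the 36 animals older than 12 weeks, as a description of libraries that share depth and tissue makeup. The lowest animal for both genes was the same, intact endstage DKO_EP replicate 5 (0.00 and 5.04), and so was the highest, vehicle-treated TKO replicate 1 (7.11 and 9.93). The 6 animals sequenced as 2 pieces differed between pieces by a median of 1.04 in Steap1 and 1.11 in Steap2 on the log2 scale. For Ncam1 the median difference was 0.156, for Cd276 0.420, for Sez6 0.446, for Psca 0.341 and for Folh1 0.950. In 1 DKO_EE animal the pieces differed by 3.10 in Steap1 and 2.89 in Steap2, the AP piece being the higher for both genes. Lars2 took 19.0% of the reads of that AP piece and 0.009% of those of its DP-LP piece. The widest gap between pieces of any antigen was in Psca, at 0.00 in the DP piece and 5.58 in the AP piece of another DKO_EE animal. That AP piece lay above the lowest 12-week value of 4.92. In this animal Lars2 took 18.7% of the reads of the DP piece and 0.534% of those of the AP piece. In both animals, the piece and the Lars2 share of its library cannot be told apart.

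**Figure D4:**
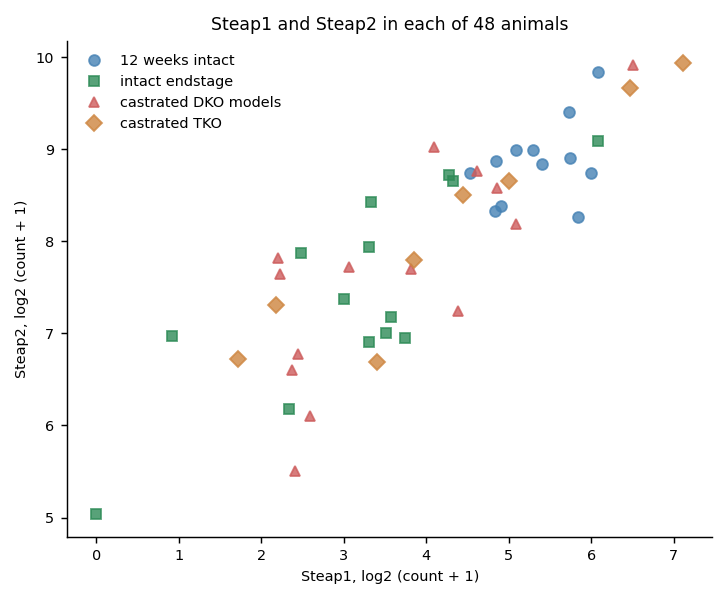
Steap1 (horizontal axis) against Steap2 (vertical axis), both log2 of the normalised count plus 1, with 1 point for each of the 48 animals and symbols by setting. Points rise from the animal at 0.00 and 5.04 to the animal at 7.11 and 9.93, and the 12-week animals sit at the upper right with several castrated ones among them.

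Cd276 had the narrowest range of the 7 antigens over animals, with all 48 animals between 7.27 and 9.74. At 12 weeks it was 7.90, 8.41, 8.39 and 8.44 in DKO, 8.44, 9.11, 8.12 and 9.01 in DKO_EE and 8.04, 7.76, 9.23 and 8.29 in DKO_EP. Intact endstage values were 7.82, 7.32 and 7.27 in DKO, 8.21, 7.84 and 7.31 in DKO_EP, and 7.52 to 8.001 with a median of 7.74 in DKO_EE. The endstage values lay below every 12-week value in DKO and DKO_EE and overlapped in DKO_EP. By limma, Cd276 fell, with differences of -0.89 in DKO_EE (SE 0.25, adjusted p = 0.00299) and -0.82 in DKO (SE 0.31, adjusted p = 0.036). In DKO_EP the difference was -0.54 (SE 0.31, limma adjusted p = 0.153). The DKO call was lost without any 1 of intact endstage replicates 2 or 3 or 12-week replicates 2, 3 or 4, with adjusted p from 0.0701 to 0.132, and it was 0.0768 by limma-voom on the reads.

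Between castrated and intact endstage tumours, Cd276 was called in DKO only. In castrated DKO tumours it was at 8.21, 9.51, 8.52 and 8.41, all above the intact endstage animals, and by limma it rose by 1.19 (SE 0.31, adjusted p = 0.00583). It was the only antigen of the 7 called there, and 1 of 7 is near the share of all genes called, 13.9%. Without the animal of 99 weeks, which had the highest value, the rise was 0.91 (adjusted p = 0.0457). With age as a covariate it was 0.81 (adjusted p = 0.199). With only those 2 groups in the fit the adjusted p was 0.108. In castrated DKO_EE the values were 8.68, 8.21, 8.21, 8.40 and 8.09, again with no overlap with intact tumours, and the difference of 0.55 did not pass (SE 0.23, limma adjusted p = 0.112). Castrated DKO_EP values were 8.22, 7.84, 8.58, 8.34 and 8.68, and the difference of 0.55 did not pass (SE 0.30, limma adjusted p = 0.321). No antigen was called in castrated against intact DKO_EE, with 16.5% of all genes called and 1 antigen (Cd276) at an unadjusted p under 0.05, or in DKO_EP, with 9.87% called and no antigen at that level. Limma-voom called none in either. In DKO_EE, Cd276 passed with only those 2 groups in the fit (limma adjusted p = 0.00998), and Psca passed with age as a covariate (-3.25, limma adjusted p = 0.0316).

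Sez6, the neuronal antigen, separated the 12-week from the later tissue. At 12 weeks it was 0.00, 3.29, 3.07 and 0.00 in DKO, 1.03, 2.88, 1.49 and 5.04 in DKO_EE, and 0.00, 1.64, 2.39 and 1.61 in DKO_EP. At intact endstage it was 7.57, 7.59 and 8.21 in DKO, 8.80, 8.42 and 9.29 in DKO_EP, and 7.39 to 8.81 with a median of 8.17 in DKO_EE. No intact endstage animal came near the highest 12-week value, 5.04. By limma the rise was 6.20 in DKO (SE 1.19, adjusted p = 9.81e-05), 5.58 in DKO_EE (SE 0.96, adjusted p = 1.09e-05) and 7.42 in DKO_EP (SE 1.19, adjusted p = 7.02e-06). The 12-week DKO_EE animal at 5.04 (38 reads) also had the highest neuroendocrine marker mean of the 12-week animals, -0.98, with Chga at 8.06.

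In castrated tumours Sez6 was high in all but 2 animals. Values were 8.97, 8.64, 8.43, 8.81 and 8.34 in DKO_EE and 8.75, 8.98, 8.54, 9.02 and 9.25 in DKO_EP. In castrated DKO they were 8.89, 1.25, 8.95 and 8.51, and in TKO they were 2.33, 7.88, 8.33 and 8.88 with vehicle and 8.79, 9.38, 8.34 and 8.50 with CPI1688. The values of 1.25 and 2.33, 1 and 3 reads, came from the pair of animals with low neuroendocrine marker means named above. Those animals also had the highest basal epithelium means, 5.17 and 4.14, of the animals older than 12 weeks. Vehicle-treated TKO replicate 2 was the animal with both antigens high, Sez6 at 7.88 and Psca at 7.19. Its skeletal muscle mean was 5.53 and its basal epithelium mean 2.19, beside a neuroendocrine mean of 0.99.

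**Figure D5:**
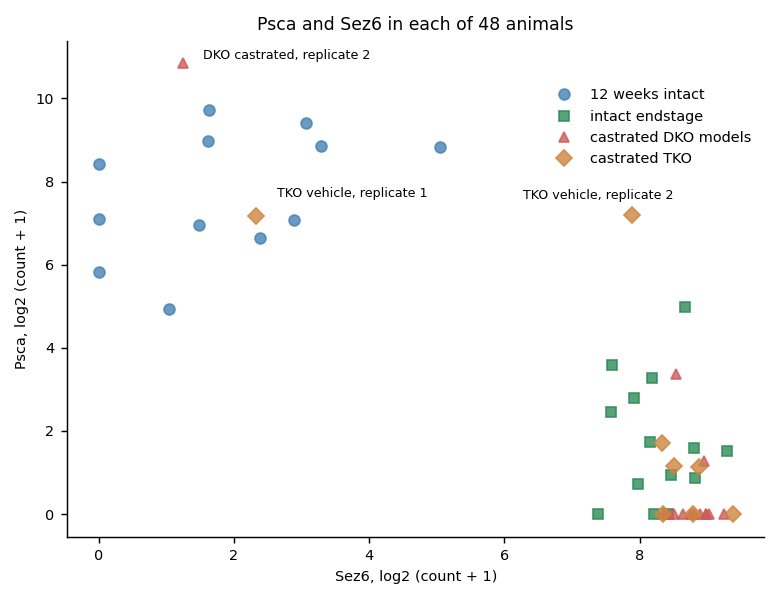
Sez6 (horizontal axis) against Psca (vertical axis), both log2 of the normalised count plus 1, with 1 point for each of the 48 animals and symbols by setting. The 12-week animals lie at the upper left and most later animals at the lower right, with DKO castrated replicate 2 (1.25 and 10.85) and TKO vehicle replicate 1 (2.33 and 7.18) among the former and TKO vehicle replicate 2 (7.88 and 7.19) apart from both.

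Ncam1, the adhesion molecule CD56, was already expressed at 12 weeks and rose from there. The 12-week values were 7.85, 8.98, 9.10 and 6.77 in DKO, 7.67, 8.74, 8.63 and 9.65 in DKO_EE, and 6.76, 9.02, 9.61 and 7.48 in DKO_EP. At intact endstage they were 10.999, 10.54 and 10.73 in DKO, 11.10, 10.56 and 10.94 in DKO_EP, and 10.57 to 11.10 with a median of 10.81 in DKO_EE, with no overlap in any genotype. By limma the rise was 2.58 in DKO (SE 0.55, adjusted p = 0.00035), 2.14 in DKO_EE (SE 0.44, adjusted p = 0.000137) and 2.65 in DKO_EP (SE 0.55, adjusted p = 0.0002). With the Lars2 covariate the rise was 1.502 in DKO_EE (adjusted p = 0.116) and 1.71 in DKO_EP (adjusted p = 0.230).

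Among castrated animals Ncam1 was 10.65, 7.95, 10.57 and 10.69 in DKO, 11.69, 10.31, 10.80, 11.24 and 11.18 in DKO_EE, and 10.23, 10.80, 11.10, 11.08 and 11.34 in DKO_EP. In TKO it was 10.28, 10.75, 11.97 and 11.73 with vehicle and 11.47, 11.90, 11.27 and 11.91 with CPI1688. The value of 7.95 belonged to the DKO animal of 99 weeks and was the only one of 36 at or below the highest 12-week value. Vehicle-treated TKO replicate 1, low in Sez6, kept Ncam1 at 10.28.

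Skeletal muscle genes were also higher in part of the 12-week tissue than at intact endstage, mainly in DKO and DKO_EP and little in DKO_EE. The mean over 10 skeletal muscle genes was 4.74 to 9.38 in DKO, -1.65 to 2.03 in DKO_EE and -1.12 to 9.49 in DKO_EP at 12 weeks, against -1.97 to -0.24 in the intact endstage animals. All 10 genes fell in DKO, 1 in DKO_EE and 7 in DKO_EP by limma, with 36.7%, 50.6% and 44.2% of all genes called. Among endstage groups, 1 of the 10 genes was at 0 in every intact DKO animal and 3 in every intact DKO_EP animal. With only the 12-week animals under 1% Ttn (2 DKO, 4 DKO_EE, 2 DKO_EP), Psca differed by -7.12, -5.03 and -5.83 in DKO, DKO_EE and DKO_EP, Sez6 by 4.61, 5.58 and 7.64, and Ncam1 by 1.71, 2.14 and 2.68, all still called. Cd276 in DKO was then not called (-0.93, adjusted p = 0.0584). The 2 DKO animals kept, replicates 2 and 3, still had skeletal muscle means of 4.74 and 5.32. In DKO the limit on Ttn therefore did not leave 12-week tissue with muscle genes as low as at intact endstage.

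Genotype was compared within each setting, and no antigen was called in any of these comparisons by limma. DKO_EE and DKO_EP share the same DKO animals as controls. At 12 weeks the share of all genes called was 0.0% for DKO_EE and 0.0% for DKO_EP, each against DKO, and 0.0% between DKO_EE and DKO_EP, and 1, 1 and 0 antigens had an unadjusted p under 0.05. Both were Folh1, higher by 1.29 in DKO_EE (SE 0.57, limma adjusted p = 0.975) and by 1.47 in DKO_EP (SE 0.57, limma adjusted p = 0.991), and DKO_EP did not overlap with DKO. At intact endstage that share was 1.66% for DKO_EE and 0.0% for DKO_EP, each against DKO, and 1.63% between DKO_EE and DKO_EP, with 0, 1 and 1 antigens at an unadjusted p under 0.05. Both were Sez6, higher in DKO_EP than in DKO by 1.05 (SE 0.33, limma adjusted p = 0.69) with no overlap, and lower in DKO_EE than in DKO_EP (-0.64, SE 0.27, limma adjusted p = 0.28).

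In castrated tumours the corresponding shares were 7.72% for DKO_EE against DKO, 0.0302% for DKO_EP against DKO and 1.7% for DKO_EE against DKO_EP, with 1, 1 and 0 antigens at an unadjusted p under 0.05. Ncam1 was 1.08 higher in DKO_EE than in DKO (SE 0.50, limma adjusted p = 0.197), and 0.41 without the DKO animal of 99 weeks. Steap2 was 1.79 higher in DKO_EP than in DKO (SE 0.62, limma adjusted p = 0.24), and 2.45 without that animal (adjusted p = 0.112). The Psca difference of DKO_EE from DKO was -3.03 with that animal and -0.43 without it, and the Sez6 difference was 1.74 with it and -0.14 without it. Limma-voom on the reads likewise called no antigen between genotypes.

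Whether the change between settings differed between genotypes was tested as an interaction, and no antigen was called. The progression of DKO_EE against that of DKO had 0.125% of all genes called and no antigen at an unadjusted p under 0.05, and that of DKO_EP had 0.00596% called and 1 antigen, Folh1 (-2.31, SE 1.10, p = 0.0423 and adjusted p = 1 by limma). Limma-voom also called no antigen in the interactions, nor between the TKO groups. For castration the share was 0.0119% in DKO_EE with no antigen, and 0.0238% in DKO_EP with 1, Steap2 (2.47, SE 1.04, p = 0.0225 and adjusted p = 0.90 by limma).

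CPI1688 was compared with vehicle in castrated TKO mice, which addresses inhibition of Ezh2 in place of its deletion. No antigen was called, with 0.0% of all genes called and 1 antigen at an unadjusted p under 0.05. That was Psca, lower with CPI1688 (log2 difference -4.01, SE 1.49, p = 0.0266 and adjusted p = 1 by limma), where the vehicle group held 107, 132, 2 and 1 reads and the CPI1688 group 0, 0, 0 and 1. Without vehicle replicate 1 the difference was -3.05, and without replicate 2 it was also -3.05. Sez6 differed by 1.90 (SE 1.32) and by 0.39 without vehicle replicate 1. Steap1 (0.20, SE 1.28), Steap2 (0.39, SE 0.81), Cd276 (0.03, SE 0.35) and Ncam1 (0.46, SE 0.39) differed by less than 0.5 on the log2 scale, with groups that overlapped. Vehicle-treated TKO against castrated DKO had no antigen called and 0.566% of all genes called, with 1 antigen, Ncam1, at an unadjusted p under 0.05 (1.22, SE 0.51, limma adjusted p = 0.395). In castrated DKO, Ncam1 was at 7.95 in the animal of 99 weeks and at 10.57 to 10.69 in the others. The groups also differed in age, 15 to 19 weeks in TKO against 39 to 99 weeks in DKO.

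The relatives of each antigen were read from lists chosen with earlier results of these data known, by the same limma calls. Of 24 other carcinoma surface targets measured, 1 rose and 17 fell from 12 weeks to intact endstage in DKO, 3 and 16 in DKO_EE, and 1 and 16 in DKO_EP, with list medians of -2.28, -2.15 and -2.61. Gprc5a, an orphan receptor of epithelia, fell, with differences of -5.83, -4.14 and -6.00. Of 22 other neuroendocrine surface targets, 8 rose and 4 fell in DKO, 12 and 7 in DKO_EE, and 9 and 5 in DKO_EP, with medians of 0.99, 1.99 and 1.02. Cdh2, which encodes N-cadherin, rose by 3.97, 3.85 and 5.21. Over all genes the medians were near 0, as given above, and 36.7%, 50.6% and 44.2% were called, against 75%, 79.2% and 70.8% of the carcinoma list and 54.5%, 86.4% and 63.6% of the neuroendocrine list.

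Within the families of the members the direction was mixed, and several shares called were near those over all genes (36.7%, 50.6% and 44.2%). The shares in DKO, DKO_EE and DKO_EP were 57.9%, 63.2% and 57.9% for the Ly6 family, 30.0%, 80.0% and 80.0% for the STEAP family and iron handling, and 50.0%, 62.5% and 37.5% for the relatives of Folh1. Among 19 genes of the Ly6 family of Psca, 3, 4 and 3 rose and 8 fell in each of DKO, DKO_EE and DKO_EP, and Ly6e fell (-2.58, -2.42 and -2.82) while the endothelial Gpihbp1 rose by 3.79 in DKO_EE and by 4.13 in DKO_EP. Of 10 genes of the STEAP family and iron handling, 0, 1 and 2 rose and 3, 7 and 6 fell, among them Slc40a1, the iron exporter ferroportin (-2.01, -2.27 and -1.75), and Steap4 (-3.95 in DKO_EE and -3.55 in DKO_EP). Of 8 peptidase and folate genes related to Folh1, 2, 2 and 1 rose and 2, 3 and 2 fell, with the folate receptor Folr1 at -4.24, -3.04 and -4.76.

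The shares called were 12.5%, 75% and 62.5% for the B7 family, 37.5%, 37.5% and 25% for the relatives of Sez6, and 42.9%, 50.0% and 42.9% for the relatives of Ncam1, the last 2 near or below those over all genes. Of 8 genes of the B7 family other than Cd276, none rose and 1, 6 and 5 fell, and Vtcn1, which encodes B7-H4, fell in each genotype (-5.70, -4.02 and -6.41). Of 8 relatives of Sez6, 1 rose in each genotype, Sez6l2 (5.12, 4.57 and 6.09), and 2, 2 and 1 fell, with the protease gene Bace2 at -3.15, -1.76 and -2.07. Of 14 adhesion genes related to Ncam1, 5 rose in each genotype and 1, 2 and 1 fell, with Chl1, a neural adhesion molecule, at 2.75, 2.78 and 2.55. After castration, 13.9%, 16.5% and 9.87% of all genes were called in DKO, DKO_EE and DKO_EP. Of the 22 other neuroendocrine surface targets, 1 rose in each genotype and none fell, Cd47, the ligand that inhibits phagocytosis (1.96, 2.07 and 1.97). Of the 24 other carcinoma surface targets, 3, 1 and 1 rose and none fell, among them Cd46, a complement regulator (1.97, 2.44 and 3.09).

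The genes most like each antigen were sought by Pearson's r of log2 values over the 48 animals among 12231 genes, given as a description since the animals fall into 12-week and later sets and share their libraries. Psca was most like the basal epithelial genes Krt15 (0.93) and Col17a1 (0.92) and the ceramide synthase gene Cers3 (0.93). Sez6 was most like the synaptic gene Unc13a (0.98), Sez6l2 (0.98) and Celf4 (0.98), and Ncam1 like Dlgap3 (0.95), Brsk1 (0.94) and Celf4 (0.94). Steap1 had Steap2 first (0.86), then Vcl (0.78) and Cd44 (0.78). Steap2 was likewise most like Steap1 (0.86), which was no candidate because it fell among the lowest 25% of genes. Among the candidates, Steap2 came next to Nars (0.75), Basp1 (0.73) and Slit2 (0.72). Folh1 was most like Dpp4 (0.79), Cflar (0.79) and Itch (0.78), and Cd276 like Sec24b (0.80), Ppard (0.79) and Ssh1 (0.79).

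Marker lists moved along the same division of the animals. Of 20 neuroendocrine markers, 13, 17 and 16 rose and 1 fell from 12 weeks to intact endstage in DKO, DKO_EE and DKO_EP, with the mean per animal at -4.74 to -0.98 at 12 weeks and 0.73 to 1.84 at intact endstage. Of 10 basal epithelium markers none rose and 6, 9 and 9 fell, with the mean per animal at 2.01 to 4.84 at 12 weeks and -3.13 to 1.16 at intact endstage. Of 16 luminal and androgen response markers none rose and 9, 8 and 9 fell. Over all genes, 36.7%, 50.6% and 44.2% were called in either direction in DKO, DKO_EE and DKO_EP. The luminal count in DKO_EE was near that share. No basal marker was at 0 throughout any group, 2 luminal markers were at 0 throughout each intact endstage group, and their part in the differences of the antigens was not tested.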

How the data were processed

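Total RNA of mouse prostate tumour tissue was depleted of ribosomal RNA and sequenced, per the labels' protocols. The tools DESeq2, limma, RSEM, STAR and FastQC and the build GRCm38 (mm10) are named, per the submitters' processing notes, without the role of each. The authors deposited 1 table of log2 values, log2 of a normalised count plus 1, for 16772 genes. Removing the logarithm and the 1 gave whole multiples of 1 step per library (within 0.05 for 100% of values), from which reads were recovered, 8.92% of values being 0. Of 56 columns, 2 matched no sample and were not used.

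The animal was the replicate, and the libraries of 6 animals with 2 pieces were averaged on the log2 scale. Differences were fitted with limma 3.58.1 (lmFit, contrasts.fit, eBayes with trend) in R 4.3.3, two-sided, Benjamini-Hochberg adjusted over all genes with any spread and called under 0.05. Within a setting the groups of that setting were fitted, and comparisons between settings and interactions used all 11 groups. The fits were tested on simulated data. Limma-voom on the recovered reads, with TMM size factors computed in R, was an alternative, and it called 6342, 9088 and 6968 genes between 12 weeks and intact endstage in DKO, DKO_EE and DKO_EP.

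The members and the lists were chosen with earlier results of these data known. Named genes were the 7 members, from each list up to 3 called genes with the smallest adjusted p (others named from a list were chosen after their values were seen), and the 3 genes most like each member, leaving out unnamed models and the lowest 25% of genes. Alternatives changed the genes fitted, offset, normalisation, weights, covariates, groups and libraries, and left out each animal. Lars2 as a covariate and the limit on Ttn were chosen after seeing the data. Promoters are from RefSeq on GRCm38.p6, with entries for 4 of the 7 genes. The SKO model was not analysed here. Figures used matplotlib 3.10.9.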

Additional observations from a re-analysis of the deposited data

Results flagged for a closer look

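In 63 sets of 4 to 8 animals (1 antigen in 1 group), 10 had an animal whose gap to the nearest other was large for the group's range by Dixon's test. The test's nominal rate of 1 in 20 assumes values without a floor at 0 and sets that share no animals. Neither holds here, so the 10 are a description and are not compared with chance. The castrated DKO animal of 99 weeks accounted for 4 of them. Its Psca value was 10.85 with the next at 1.28, its Sez6 value 1.25 with the next at 8.51, its Ncam1 value 7.95 with the next at 10.57 and its Steap1 value 4.61 with the next at 2.59. In vehicle-treated TKO, replicate 1 had Sez6 at 2.33 with the next at 7.88. In intact endstage DKO_EE, the animal with pieces 11 and 12 had Steap1 at 6.08 with the next at 3.74. In 12-week DKO, replicate 1 had Cd276 at 7.90 with the next at 8.39. The others stood against animals at 0: Psca at 3.36 (8 reads) in castrated DKO_EP replicate 3, Psca at 1.17 in replicate 4 and Folh1 at 1.20 in replicate 3 of TKO given CPI1688, the last 2 from 1 read each. With every other animal of a set at 0, any value above 0 gives the largest possible gap.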

How the results depend on the processing

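Of 22 differences of an antigen that were called in at least 1 fit, 16 were called as reported. Their 426 values under the alternatives included 388 on the same side of the threshold, 23 no longer called, 15 newly called and 0 of opposite sign. Another 125 differences were never called, and 213 of their 2549 values changed sign. Of 17 comparisons with no antigen called, 16 had none under any alternative run.

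From 12 weeks to intact endstage, the number of antigens called went from 4 to 2 in DKO with identifier letters as a covariate, from 6 to 1 in DKO_EE and from 5 to 1 in DKO_EP with Lars2 as a covariate, and to 2 in DKO_EP without the lowest 25% of genes, a filter that removed Folh1, Psca and Steap1 from the fit. Leaving out each animal gave 3 to 4 in DKO, 5 to 7 in DKO_EE and 4 to 6 in DKO_EP. For castrated against intact DKO the number was 2 with array weights, 0 with age as a covariate and 0 with only the 2 groups in the fit. For DKO_EE it was 2, 1 and 1, where array weights gained Cd276 and Psca, age gained Psca and the 2 groups gained Cd276. The cause of these changes was not tested.

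The covariate of identifier letters was fitted in 14 of 21 comparisons, age in 13, and the limit on Lars2 in 15. No paired analysis was possible because the labels give the groups no shared replicate numbers. At 3687048 to 9741808 reads per library, 28 of the 36 later animals had 3 Folh1 reads or fewer and 17 had no Psca read, which limits the precision of differences among those groups.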
